A study of Mus musculus with 6 samples.

Results

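Heat shock proteins and chaperones were followed in naive CD4+ T cells from lymph nodes of infant and adult mice. The genes were chosen by symbol alone. The choice took every gene whose symbol begins with Dnaja, Dnajb or Dnajc and a number, every gene of the Hsp series, the CCT subunits with Tcp1, and Bag1 to Bag6. It gave 103 of the 52997 genes in the count table. Of these, 14 were annotated pseudogenes and 89 were other genes, and 69 had enough counts to be tested. By class the 69 were 3 HSP90 genes, 9 HSP70 genes with the related HSP110 genes, 2 genes of the mitochondrial chaperonin, 8 CCT subunits, 37 DNAJ genes, 6 BAG genes, 2 small heat shock protein genes and 2 genes named as partners of heat shock proteins.

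Chaperones bind unfolded or partly folded proteins and keep them from aggregating while they reach their final shape. HSP70 proteins do this in cycles of ATP hydrolysis. DNAJ proteins start these cycles, and HSP110 proteins and several BAG proteins end them by releasing ADP. HSP90 acts on nearly folded clients such as kinases and receptors, and the CCT ring encloses actin, tubulin and other proteins. Many of these genes are switched on by the heat shock factor Hsf1 when unfolded proteins build up, those of the endoplasmic reticulum (ER) by Atf6 and its relatives, and T cells draw on HSP90 for the kinase Lck and on ER chaperones when they secrete protein.

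The mice of both groups carried the Foxp3-GFP reporter on C57BL/6, which labels regulatory T cells with a green fluorescent protein, and they differed in age, with 3 infants of 10 days and 3 adults of 7 weeks. Each library came from the pooled lymph nodes of 1 mouse, from which 1000 CD4+ T cells were sorted 2 times in succession, and no treatment is named. Library titles call the cells Tconv, and the sources used here do not name the sort markers. Polyadenylated RNA was amplified by PCR and read in pairs of 25 bases, with no molecular identifiers and no record of strand, so counts include PCR copies and reads of a gene and an antisense partner cannot be told apart.

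Libraries held 3421253 to 4887371 counts, of which chaperone genes took 1.04% to 1.21%. A count of 3 stood for 0.628 to 0.852 CPM, counts scaled to a common library total, and covers counting error only. Adult replicate 2 stood apart: it had counts for 36373 genes, where the rest had them for 17992 to 21840. The 10 CD4+ T cell markers summed to 8034 to 9262 CPM and none passed the test (edgeR, 1 at an unadjusted p under 0.05, none with DESeq2 or limma-voom). Of the regulatory T cell markers 0 of 6 passed with edgeR (1 at an unadjusted p under 0.05, Tnfrsf18, lower in infants, which passed with DESeq2 and with limma-voom under quality weights), of memory markers 1 of 3 (Lgals1, higher), and of CD8, NK and γδ T cell markers 0 of 2. The B cell list (0 of 4 passing) summed to 691 to 840 CPM, of which Ighm gave 665 to 822. Myeloid markers (0 of 2 passing) summed to 5.98, 12.4 and 37.8 CPM in adults, the highest in adult replicate 2, and to 16.2 to 20.3 in infants. Of 9 stromal and endothelial markers only Pecam1 could be tested, and of 6 erythroid markers only Alas2, and neither passed. Cycling markers did move with age: 4 of 12 passed, all higher in infants, and the list summed to 27.2, 76.4 and 28.8 CPM in adults and 117, 124 and 241 in infants. Whether cycling cells or cells of other types had a part in the chaperone values was not tested.

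Promoter sequence shows which chaperone genes carry the sites these regulators are known to read. RefSeq (GRCm38.p6, the same coordinates as mm10) gave windows from 250 bases before to 50 after the start of transcription. Such windows existed for 73 of the 89 genes that are not pseudogenes. Hsp90aa1, Hsp90ab1 and Hspa8 had none and were not searched. The heat shock element was searched on both strands as 2 facing units, GAANNTTC or TTCNNGAA, and as 3 units, GAANNTTCNNGAA or TTCNNGAANNTTC, each of which also holds the shorter form. The 2-unit form was found at 20 of the 73 genes (27.4%) against 17% of 27025 genes, and the 3-unit form at 4 (5.48%; Hsph1, Hspe1, Hspd1 and Dnajb6) against 0.662%. The ER stress response element, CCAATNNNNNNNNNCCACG, was found at 3 (4.11%; Hspa5, Hsp90b1 and Dnajc3) against 0.137%. A match describes letters and does not show binding, and these shares are descriptions of a family partly known for such sites. The following stretches run 5′ to 3′ on the strand of the gene, with the element in capitals. Hspa1a is shown as the classical heat-inducible HSP70 gene, Hsph1 and Hspe1 for the 3-unit form, and the last 3 for the ER element.
Hspa1a, chr17:34972213-34972300, minus strand, element 104 bases before the start: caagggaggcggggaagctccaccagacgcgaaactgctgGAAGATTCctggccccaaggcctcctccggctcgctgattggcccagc
Hsph1, chr5:149636280-149636308, minus strand, in the first exon: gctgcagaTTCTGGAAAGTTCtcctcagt
Hspe1, chr1:55088051-55088079, plus strand, element 89 bases before the start: acggtccgTTCTAGAACCTTCcggaaggc
Hspa5, chr2:34772020-34772048, plus strand, element 65 bases before the start: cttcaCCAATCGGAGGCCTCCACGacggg
Hsp90b1, chr10:86705608-86705686, minus strand, the farther of the elements found, 212 bases before the start: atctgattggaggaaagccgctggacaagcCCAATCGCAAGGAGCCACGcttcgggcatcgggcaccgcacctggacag
Dnajc3, chr14:118937797-118937875, plus strand, element 105 bases before the start: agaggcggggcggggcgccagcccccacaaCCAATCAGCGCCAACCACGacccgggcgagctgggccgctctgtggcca

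Hspa1b, the neighbouring copy of Hspa1a, holds the same 88 bases at chr17:34959295-34959382, and over the 250 bases before their starts the pair differs at 3. Hspd1 and Hspe1 lie head to head on chromosome 1 and share the stretch shown for Hspe1, read on opposite strands.

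At these ages the chaperone genes differed little. Infant and adult libraries were compared with edgeR's quasi-likelihood test over all 11681 tested genes, with Benjamini-Hochberg adjustment, and a gene passed at an adjusted p under 0.05. Of the 69 tested chaperone genes 1 passed (1.45%), Hspa12a, lower in infants, where 3.64% of all tested genes passed. None of the 69 was higher, against 1.52% of all genes, and the 1 that was lower stood against 2.11%. At an unadjusted p under 0.05 there were 11 chaperone genes (15.9%) against 17.3% of all genes, 10 of them lower (14.5%, against 9.02%) and 1 higher (1.45%, against 8.25%). The infant and adult libraries did not overlap for 15 chaperone genes (21.7%, against 22.8% of all genes), with infants below for 12 (17.4%, against 11.6%) and above for 3 (4.35%, against 11.2%). With both directions together the chaperone shares thus lay under those of all genes, while at an unadjusted p and by overlap more of them lay on the lower side.

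The median log2 fold change of the 69 genes, infant over adult, was 0.07, with 37 above 0 and 32 below, and over all tested genes it was -0.0017. The median size of the log2 change without its sign was 0.19 for chaperones and 0.23 for all genes. Precision allowed small changes to be bounded. The 95% interval of the change lay within 1.5-fold either way for 35 chaperone genes (50.7%) against 36.1% of all genes, and within 2-fold for 55 (79.7%) against 65.6%. For the rest the data leave larger changes possible.

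**Figure D1:**
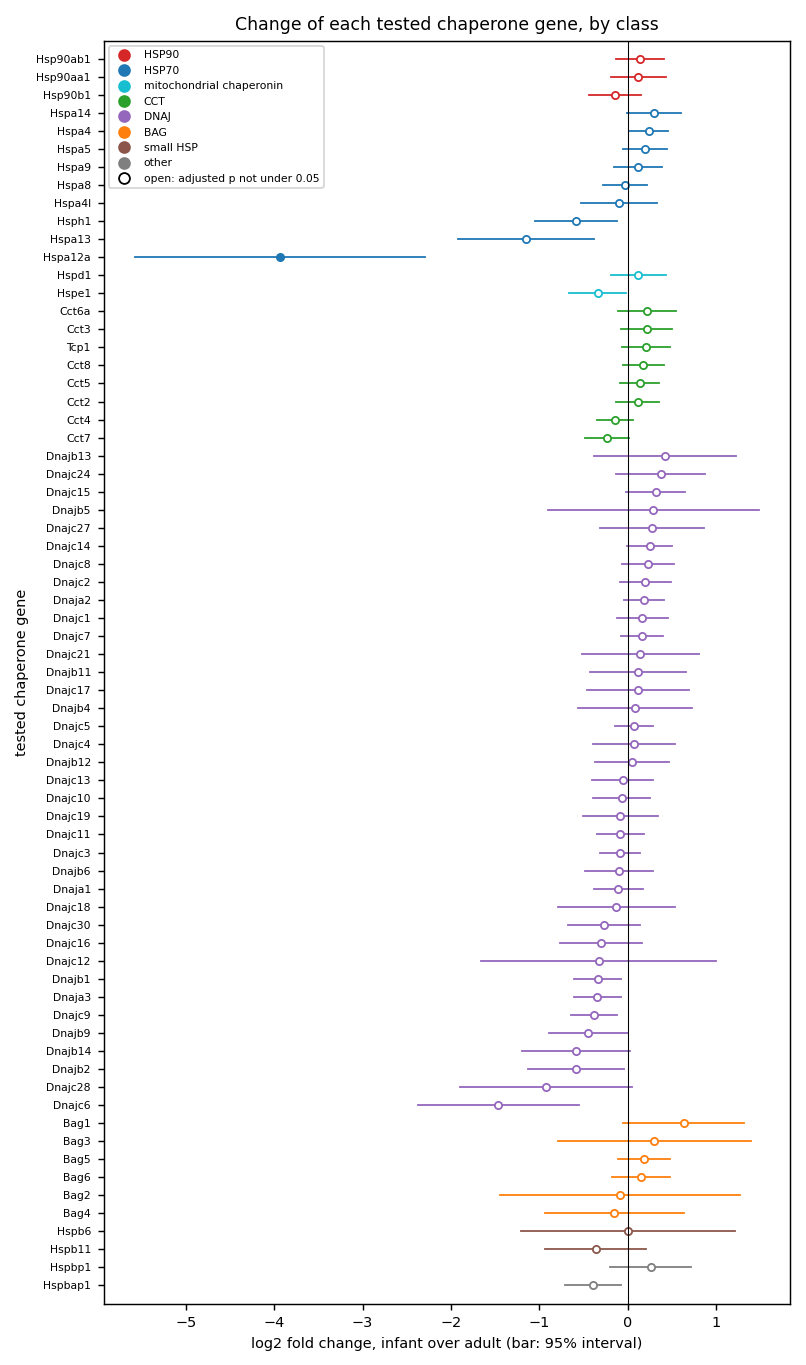
Log2 fold change, infant over adult, of each of the 69 tested chaperone genes, coloured by class, with its 95% interval from edgeR. Only Hspa12a, far to the left at -3.93, has a filled point, and most intervals of HSP90, CCT and the abundant DNAJ genes lie close to 0.

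**Figure D2:**
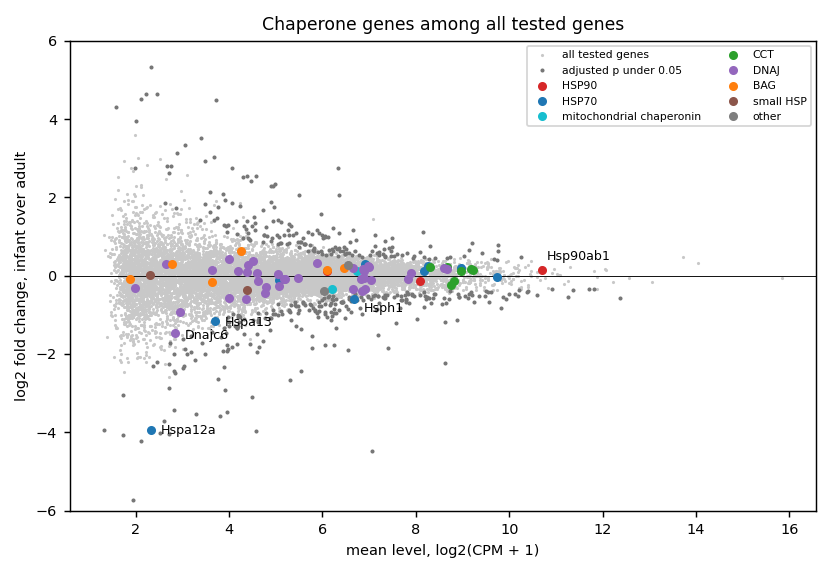
Log2 fold change against mean level (log2 of CPM + 1, mean of 6 libraries) for the tested genes, with chaperone genes coloured by class and genes at an adjusted p under 0.05 in dark grey. Chaperones lie mostly along the zero line at middle and high levels, Hspa12a sits apart at a low level, and 3 genes of extreme change lie outside the axis.

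None of the 3 HSP90 genes, which include the most abundant chaperone of these cells, passed the test of infants against adults. Hsp90ab1, the constitutive cytosolic HSP90, measured 1732, 1249 and 1790 CPM in adults and 1632, 1714 and 1913 CPM in infants. The low value belonged to adult replicate 2 and the groups overlapped. Its log2 fold change was 0.14 (SE 0.13, 95% interval -0.13 to 0.41). Hsp90aa1, the heat-inducible cytosolic form, measured 69.1, 58.8 and 65.2 CPM in adults and 60.5, 75.9 and 74.1 CPM in infants, with a log2 fold change of 0.12 (interval -0.19 to 0.44). Between these paralogs the level per kb of exon differed widely, with means over the 6 libraries of 557 CPM per kb for Hsp90ab1 and 17.1 for Hsp90aa1. Short reads weaken that comparison, since 53.4% of the 25-base words of Hsp90aa1 and 21.3% of those of Hsp90ab1 also occur in other genes, mainly processed copies, and the sources used here do not say how shared reads were counted. Hsp90b1, the ER form (GRP94), measured 289, 229 and 330 CPM in adults and 224, 256.1 and 288 CPM in infants, with a log2 fold change of -0.14 (interval -0.44 to 0.15). The class summed to 1938 ± 350 CPM in adults and 2080 ± 182 CPM in infants (SD, n = 3 each), a difference smaller than the spread between adult libraries.

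In the HSP70 class 1 of 9 tested genes passed, and the constitutive members were close to equal. Hspa8 (HSC70), the housekeeping cytosolic HSP70, measured 901, 732 and 959 CPM in adults and 782, 814 and 949 CPM in infants. Its log2 fold change was -0.03 with an interval of -0.28 to 0.22, and 46.8% of its 25-base words occur elsewhere. Hspa5 (BiP), the HSP70 of the ER, measured 438, 418 and 552 CPM in adults and 507, 551 and 553 CPM in infants, and its change was 0.19 (interval -0.05 to 0.44). Infant values of Hspa5 sat at the upper end of the adult range. Hspa9 (mortalin), the mitochondrial HSP70, measured 285, 224 and 319 CPM in adults and 301, 305 and 291 CPM in infants, a log2 fold change of 0.11 (interval -0.15 to 0.38).

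Hspa12a, a divergent member of the HSP70 family at chr19:58795750-58943654 (mm10, minus strand), was the gene that passed. Adult libraries held 16, 33 and 44 counts (3.88, 9.38 and 9.40 CPM) and infant libraries 0, 2 and 4 counts (0, 0.48 and 0.97 CPM). All adult libraries were thus above all infant ones, and infant replicates 1 and 2 lay under the level of 3 counts. The log2 fold change was -3.93 (SE 0.77, interval -5.58 to -2.29), a 15.3-fold lower fitted level in infants (edgeR, adjusted p = 0.0104). Hspa12a met the count filter through its adult libraries only, since no infant library reached the minimum count. The size of the change rests on 6 infant counts in total and is imprecise. Over the 6 libraries the level of Hspa12a was the lowest of all tested chaperones per kb of exon, 0.437 CPM per kb. In adults alone it was 0.82 CPM per kb, above Dnajc12 (0.73) and Dnajb5 (0.81). Without division by length its mean of 4.02 CPM was above those of Bag2 (2.67), Dnajc12 (2.94) and Hspb6 (3.97). The call rests on few counts: it was lost without adult replicate 3 (edgeR, adjusted p = 0.0754), infant replicate 1 (0.0566) or infant replicate 2 (0.0955), and a stricter filter removed the gene. Over the alternatives that kept the gene its log2 fold change stayed between -4.88 and -3.32. In bulk libraries fewer cells with a transcript and less of it per cell cannot be told apart.

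Hspa13 (STCH), a microsomal HSP70-like protein, measured 10.2, 21.6 and 17.9 CPM in adults and 4.82, 8.46 and 9.18 CPM in infants. No infant library reached the lowest adult one, and the log2 fold change of -1.15 (SE 0.36) missed the threshold (edgeR, adjusted p = 0.0997). It passed with no filter on low counts (edgeR, adjusted p = 0.0476).

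Hsph1 (HSP105), an HSP110 protein that exchanges the nucleotide of HSP70 and carries the 3-unit element shown above, measured 145, 76.99 and 144 CPM in adults and 72.7, 68.4 and 103 CPM in infants. Adult replicate 2 was among the infant values, while the other adult libraries lay above them all. With all libraries its log2 fold change of -0.59 (SE 0.22) did not pass (edgeR, adjusted p = 0.173). Without adult replicate 2 it was -0.82 and passed (edgeR, adjusted p = 0.0126), and it passed with no filter (0.0476). Without adult replicate 2 and infant replicate 3 it was -1.03 (edgeR, adjusted p = 0.0015).

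Hspa4 (APG-2), the other abundant HSP110 gene, lay on the opposite side, at 271, 303 and 270 CPM in adults and 325, 350 and 322 CPM in infants. The groups did not overlap, but the log2 fold change of 0.24 (SE 0.10) did not pass (edgeR, adjusted p = 0.244). The third, Hspa4l, measured 31.8 to 37.1 CPM in adults and 24.4 to 35.8 CPM in infants. Hspa14, which works at the ribosome with the DNAJ protein Dnajc2, measured 95.03, 96.6 and 130 CPM in adults and 125, 126 and 144 CPM in infants (log2 fold change 0.29, interval -0.01 to 0.60).

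The classical stress-induced HSP70 genes were almost silent. Hspa1a had 0, 2 and 2 counts in adults and Hspa1b 0, 1 and 0, and both had 0 in every infant library, where 3 counts would be 0.628 to 0.726 CPM. Their sequences share 71.2% and 70.1% of their 25-base words with other genes, mostly with each other, so reads of either could have been lost or moved in counting. Hspa2, known from male germ cells, had 0, 8 and 27 counts in adults and 2, 4 and 0 in infants and was not tested.

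Genes listed as possible signs of handling did not run one way. Of 13 tested immediate early and dissociation genes 6 passed with edgeR, where 3.64% of all tested genes passed. The 6 were 2 higher in infants (Egr1 by 0.69 and Nr4a1 by 0.85 on the log2 scale) and 4 lower (Junb -0.49, Btg2 -0.55, Klf6 -0.97 and Socs3 -1.77). The list summed to 1262, 1247 and 1094 CPM in adults and 919, 912 and 1071 CPM in infants, with all infants below all adults. The means were 1201 ± 92.9 CPM in adults and 967 ± 89.7 CPM in infants (SD, n = 3 each). Whether these changes came from handling was not tested, and neither was a part of the list in the chaperone values.

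**Figure D3:**
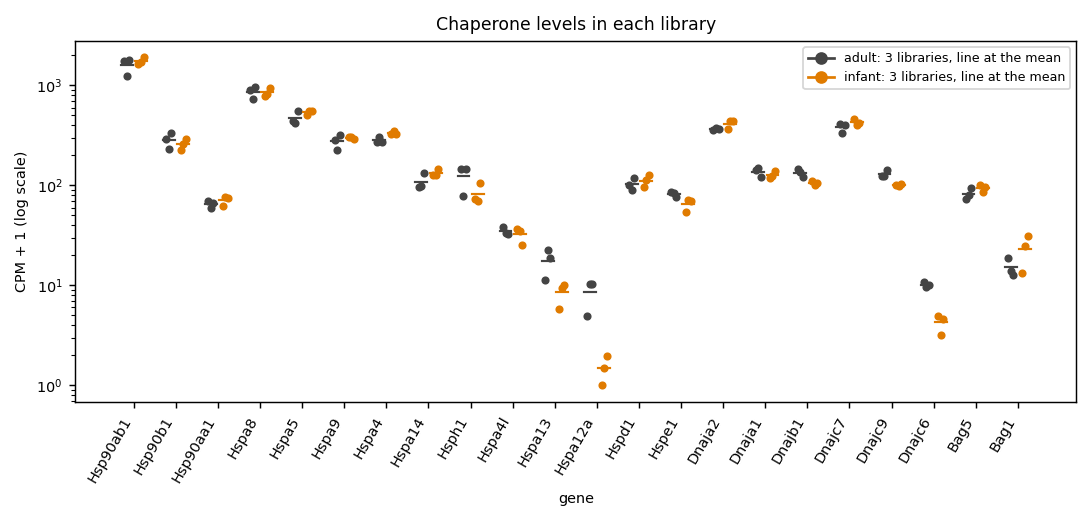
CPM + 1 on a log scale for 22 chaperone genes in each library, adults in grey and infants in orange, with a line at each mean. Hspa12a, Hspa13, Dnajc6, Hspe1, Dnajb1 and Dnajc9 show adult values all above infant ones and Hspa4 shows the reverse, while Hsp90ab1, Hspa8 and the others overlap.

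The mitochondrial chaperonin is a barrel of Hspd1 (HSP60) closed by a lid of Hspe1 (HSP10). Hspd1 measured 99.2, 88.1 and 118 CPM in adults and 95.5, 112 and 125 CPM in infants, a log2 fold change of 0.12 (interval -0.19 to 0.43). Hspe1 measured 85.3, 83.2 and 75.2 CPM in adults and 52.6, 71.1 and 69.3 CPM in infants, so its groups did not overlap, and its log2 fold change of -0.34 (SE 0.15) did not pass (edgeR, adjusted p = 0.264). The pair is transcribed from the shared promoter shown above, yet their point estimates had opposite signs, and the difference between them was not tested. Of their 25-base words 57.0% for Hspd1 and 33.4% for Hspe1 occur elsewhere, mostly in processed copies.

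CCT genes encode the 8 subunits of the cytosolic ring that folds actin and tubulin, and none of the 8 passed (edgeR, 0 also at an unadjusted p under 0.05, and 0 with DESeq2 and limma-voom). Their log2 fold changes ran from -0.23 for Cct7 to 0.22 for Cct6a, with a median of 0.16, and 6 were above 0. Cct5 measured 562, 512 and 633 CPM in adults and 609, 603 and 662 CPM in infants (interval -0.09 to 0.36). Cct8 measured 535, 486 and 610 CPM in adults and 625, 576 and 644 CPM in infants (interval -0.05 to 0.41). In both, the infant values lay within or just above the adult range.

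The intervals of all other subunits also included 0 and stayed within 1.5-fold, that of Cct7 at -0.48 to 0.02. Tcp1, which gave the ring its name and shares 20.4% of its 25-base words with other genes, had an interval of -0.07 to 0.48, Cct2 of -0.13 to 0.36, Cct3 of -0.07 to 0.50 and Cct6a of -0.10 to 0.55. Cct4 was the 1 subunit whose groups did not overlap, at 472.5, 451 and 504 CPM in adults and 420, 436 and 435 CPM in infants, and its log2 fold change was -0.14 (interval -0.35 to 0.06). Cct7 measured 458, 412 and 514 CPM in adults and 374, 360 and 445 CPM in infants, and passed only without adult replicate 2 and infant replicate 3 (log2 fold change -0.41, edgeR, adjusted p = 0.0409).

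Summed over the ring, adult replicate 2 was lowest at 3131 CPM and the other libraries ran from 3566 to 4022 CPM, adults and infants mixed. Without adult replicate 2 the median log2 fold change of the CCT class was 0.05 rather than 0.16. Per kb of exon Cct5 was the most abundant subunit in all 6 libraries, at 185 to 239 CPM per kb. The least abundant on that measure was Cct3 in the 3 adults and Cct7 in the 3 infants, at 51.6 to 65.6 CPM per kb. Exon length here joined the exons of all annotated transcripts of a gene, and the order depends on it. It was 6370 bases for Cct3 and 6778 for Cct7, against 2766 for Cct5. Before division by length, Cct6a had the lowest mean of the 6 libraries, at 316 CPM, with Cct3 at 403 and Cct7 at 427. Cct6b, which replaces Cct6a in testis, had at most 1.71 CPM and was not tested.

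**Figure D4:**
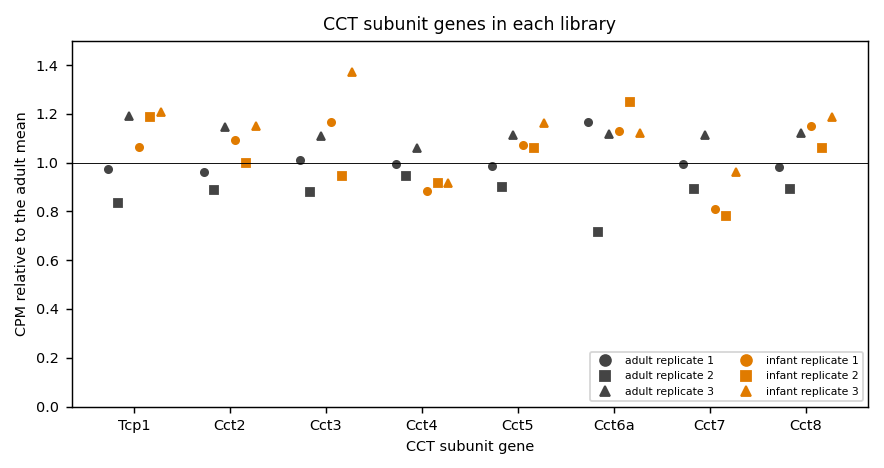
CPM of the 8 CCT subunit genes in each library divided by the adult mean of that gene, adults in grey and infants in orange. Adult replicate 2 (grey square) is the lowest adult value for every subunit. All infant values lie above the adult mean for Tcp1, Cct5, Cct6a and Cct8, and below it for Cct4 and Cct7. For Cct2 and Cct3 infant replicate 2 lies at or below the adult mean and the other infants above it.

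DNAJ proteins deliver clients to HSP70 and start its ATP cycle, and this largest class held 45 genes, of which 37 were tested and none passed (edgeR, 5 at an unadjusted p under 0.05, 0 with DESeq2, and 1, Dnajc6, with limma-voom under quality weights). Their log2 fold changes were above 0 for 18 and below for 19, with a median of -0.06. The class summed to 3018 ± 68.4 CPM in adults and 3068 ± 141 CPM in infants (SD, n = 3 each). That difference was smaller than the spread between infant libraries.

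Among class A genes, which resemble the ancestral bacterial DnaJ, Dnaja2 was the most abundant, at 356, 370 and 363 CPM in adults and 367, 436 and 438 CPM in infants (log2 fold change 0.19, interval -0.04 to 0.41). Dnaja1 measured 141, 147 and 119 CPM in adults and 116, 123 and 140 CPM in infants, with the groups mixed (interval -0.38 to 0.17). Dnaja3 (TID1), the mitochondrial class A protein, measured 116, 106 and 111 CPM in adults and 93.4, 81.0 and 88.4 CPM in infants. All infant values of Dnaja3 were below all adult ones, with a log2 fold change of -0.34 (SE 0.12) that did not pass (edgeR, adjusted p = 0.162).

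Dnajb1 (HSP40), the heat-inducible class B protein, measured 144, 136 and 119 CPM in adults and 111, 98.7 and 105 CPM in infants. Its groups did not overlap either, and its log2 fold change of -0.34 (SE 0.12) did not pass (edgeR, adjusted p = 0.162). For Dnajb2 the change was -0.59, for Dnajb14 -0.58 and for Dnajb9 -0.44, each with infants below all adults and none passing. Dnajb9 (ERdj4), a partner of BiP, measured 26.7, 30.4 and 33.5 CPM in adults and 18.6, 23.9 and 24.2 CPM in infants. Dnajb11 (ERdj3), a soluble ER partner, scattered widely, with 133, 123 and 83.1 CPM in adults and 68.3, 132 and 169 CPM in infants (interval -0.42 to 0.67). Dnajb6, whose promoter holds the 3-unit element, measured 33.2 to 38.5 CPM in adults and 31.4 to 38.4 CPM in infants (interval -0.48 to 0.29).

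Among class C genes Dnajc6 (auxilin), which brings HSC70 to clathrin coats, had the largest change, at 9.70, 8.52 and 8.97 CPM in adults and 3.98, 2.18 and 3.62 CPM in infants. The adult libraries were tightly grouped and all above the infant ones. The log2 fold change was -1.46 (SE 0.42), which did not pass (edgeR, adjusted p = 0.0753) but did with limma-voom under quality weights (adjusted p = 0.0458). Dnajc9, a J protein that also binds histones, measured 122, 123 and 143 CPM in adults and 99.7, 96.7 and 102 CPM in infants, again with no overlap (log2 fold change -0.38, edgeR, adjusted p = 0.103). Dnajc14 (107 to 122 CPM in adults, 129 to 144 in infants) and Dnajc15 (45.1 to 56.0 and 58.7 to 69.7 CPM) were the DNAJ genes with infants above all adults, with changes of 0.25 and 0.32 that did not pass. Dnajc15 sits at the mitochondrial import channel.

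Abundant class C genes were close to equal. Dnajc7, which binds both HSP70 and HSP90, measured 410, 330 and 403 CPM in adults and 455, 402 and 424 CPM in infants (interval -0.08 to 0.40). Dnajc5, the cysteine string protein of secretory vesicles, measured 229, 232 and 234 CPM in adults and 238, 234 and 258 CPM in infants (interval -0.15 to 0.29). Dnajc3, an ER protein whose promoter holds the ER element, measured 235, 233 and 233 CPM in adults and 216, 209 and 235 CPM in infants (interval -0.31 to 0.14). For each of these 3 genes a change of 1.5-fold in either direction lay outside the interval. Dnajc2, the ribosome partner of Hspa14, measured 87.4 to 100.1 CPM in adults and 91.5 to 116 CPM in infants, and Dnajc21 7.52 to 13.2 and 11.3 to 13.1 CPM.

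Several BAG proteins release ADP from HSP70. None of the 6 BAG genes passed (edgeR, 0 also at an unadjusted p under 0.05, 0 with DESeq2 and limma-voom). The class summed to 179, 175 and 184 CPM in adults and 195, 208 and 215 CPM in infants, with no overlap. Bag5 and Bag6 made up most of it. Bag5 measured 72.2, 79.3 and 92.5 CPM in adults and 98.8, 84.4 and 94.7 CPM in infants (log2 fold change 0.19, interval -0.11 to 0.48), and Bag6 69.6, 54.3 and 69.0 and 66.2, 79.8 and 68.8 CPM. Bag1 had the largest point estimate, 0.64 (interval -0.05 to 1.32), from 17.9, 12.8 and 11.5 CPM in adults and 12.4, 23.5 and 30.2 CPM in infants. Infant replicate 1 of Bag1 fell among the adults. Bag2, Bag3, which is heat-inducible, and Bag4 were low, with intervals wider than 1.5-fold either way, and their largest values were 4.26, 8.38 and 17.6 CPM.

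Small heat shock proteins hold unfolded proteins without ATP, and this class was nearly absent. Of 8 genes 2 were tested, neither passed (edgeR, 0 also at an unadjusted p under 0.05, 0 with DESeq2 and limma-voom), and the 6 others had at most 1.42 CPM. Hspb1 (HSP25) had 1 count, in infant replicate 2. Hspb8 had 5 counts, all in adult replicate 2, the library with counts at most genes. Hspb11, which despite its name is a part of the transport machinery of cilia, measured 23.3, 28.7 and 14.96 CPM in adults and 14.7, 18.6 and 18.6 CPM in infants. Hspb6 measured 2.84 to 5.55 CPM in adults and 2.09 to 6.52 CPM in infants.

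Of the genes named as partners, Hspbap1 measured 73.5, 74.7 and 70.3 CPM in adults and 55.7, 63.1 and 47.6 CPM in infants. All its infant values were below the adult ones (log2 fold change -0.39, edgeR, adjusted p = 0.182). Hspbp1, a nucleotide exchange factor of HSP70, measured 56.7, 74.7 and 120.3 CPM in adults and 91.7, 115 and 95.9 CPM in infants (interval -0.20 to 0.72). The 20 genes that were neither pseudogenes nor tested were all low. Their highest value was 5.77 CPM, for Hspa2 in adult replicate 3. Hspb3 was at 0 in all libraries, and 3 others (Hspa1b, Hspb2 and Hspb8) had counts in adult replicate 2 alone. No pseudogene was tested, and 3 of 14 were at 0 throughout.

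Chaperones were also grouped by compartment and by heat inducibility. None of 9 tested heat-inducible genes passed (edgeR, 3 at an unadjusted p under 0.05: Hsph1, Dnajb1 and Hspe1, all lower). That list summed to 755, 643 and 691 CPM in adults and 569, 609 and 670 CPM in infants. None of 8 ER chaperones (1 at an unadjusted p under 0.05) and none of 9 mitochondrial ones (2) passed. Over all tested genes 17.3% had an unadjusted p under 0.05, and 9.02% had it and were lower in infants. Neither DESeq2 nor limma-voom called any gene of these 3 lists.

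Regulators and partners of the chaperones were read from lists taken from textbook knowledge, with 86 of 89 genes tested. With edgeR 3 of the 86 passed, 1 higher and 2 lower in infants, a share near the 3.64% of all tested genes. Hsf1, the master regulator of the heat shock response, fell, from 154, 162 and 159 CPM in adults to 120, 115 and 96.1 CPM in infants. Every infant library was below every adult one. The log2 fold change was -0.52 (SE 0.12; edgeR, adjusted p = 0.0302). The call was close to the threshold: it was lost on leaving out adult replicate 1 (adjusted p 0.101), adult replicate 3 (0.0924), infant replicate 1 (0.0706), infant replicate 2 (0.131) or infant replicate 3 (0.144), and kept without adult replicate 2 (0.0472), all with edgeR. The other 6 tested genes of that list did not pass, with Hsf2 at 12.6 to 19.0 CPM in adults and 14.5 to 22.0 CPM in infants.

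The 4 genes found with a 3-unit heat shock element among those searched did not share one direction beside Hsf1. Their log2 fold changes were -0.59 for Hsph1, -0.34 for Hspe1, -0.09 for Dnajb6 and 0.12 for Hspd1, and none passed. Whether any of these values depends on Hsf1 was not tested.

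Atf6, a membrane-bound factor of the ER stress response, rose. It measured 18.2, 11.1 and 6.84 CPM in adults and 42.1, 37.0 and 36.7 CPM in infants, with no overlap. The log2 fold change was 1.69 (SE 0.29; edgeR, adjusted p = 0.0044), and it passed under all alternatives run (highest adjusted p 0.0378). The other 17 tested genes of ER folding did not pass (edgeR). Among them Xbp1, another factor of the ER stress response, was at 73.7, 100.01 and 97.2 CPM in adults and 57.0, 67.7 and 67.6 CPM in infants (log2 fold change -0.50, edgeR, adjusted p = 0.0936). The chaperones with an ER element did not pass, at 0.19 for Hspa5, -0.14 for Hsp90b1 and -0.09 for Dnajc3 on the log2 scale. The 95% interval of each excluded a rise of 1.5-fold. Whether any of these values depends on Atf6 was not tested.

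**Figure D5:**
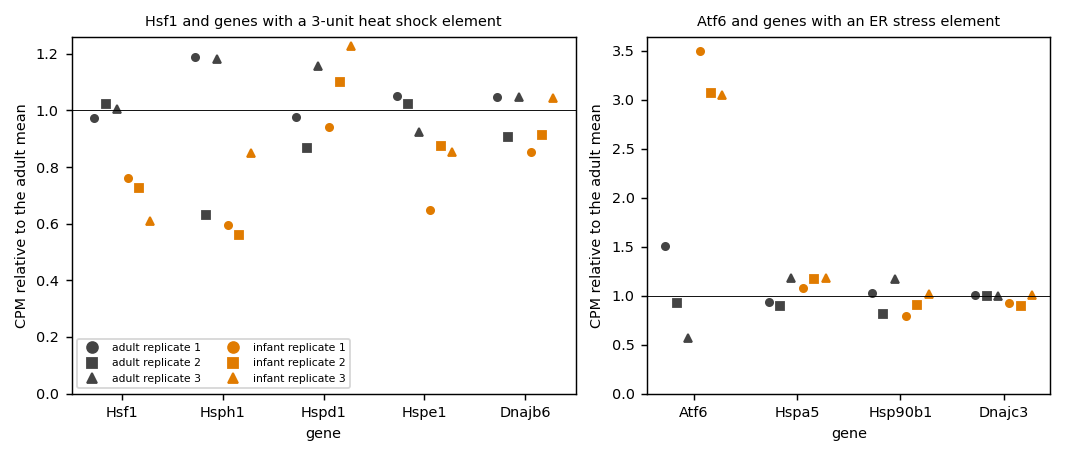
CPM in each library divided by the adult mean of the gene, adults in grey and infants in orange: on the left Hsf1 and the 4 genes with a 3-unit heat shock element, on the right Atf6 and the 3 genes with an ER stress response element. Hsf1 is lower and Atf6 higher in all infants, Hspe1 lies below 1 in all infants, Hsph1 in all infants and adult replicate 2, and the groups overlap for the other chaperone genes.

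Pfdn5, a subunit of prefoldin, which hands unfolded actin and tubulin to CCT, fell from 261, 246 and 243 CPM in adults to 151, 179 and 156 CPM in infants. The groups were far apart, with a log2 fold change of -0.63 (SE 0.11; edgeR, adjusted p = 0.0053), lost only without infant replicate 1 (adjusted p = 0.0516). Of its 25-base words 28.1% occur in other genes. The other 13 prefoldin and CCT cofactor genes did not pass, among them Pfdn2 at -0.41 and Pfdn1 at 0.05 on the log2 scale.

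No gene on the list of HSP90 co-chaperones passed of 23 tested (edgeR, 3 at an unadjusted p under 0.05, 0 with limma-voom and 1, Trap1, with DESeq2). Trap1 stood on that list but is itself an HSP90 and not a co-chaperone. Trap1, the mitochondrial HSP90, measured 168, 130 and 140 CPM in adults and 202, 191 and 194 CPM in infants (log2 fold change 0.42, edgeR, adjusted p = 0.0729), and was named after its values were seen. Cdc37, which brings kinases to HSP90 and was the most abundant of the list, measured 352, 330 and 378 CPM in adults and 370, 373 and 370 CPM in infants (interval -0.14 to 0.28). None of 13 genes listed as HSP70 partners passed (edgeR, 0 also at an unadjusted p under 0.05, 0 with DESeq2 and limma-voom). The most abundant of that list was Samm50, at 139 to 173 CPM in adults and 162 to 182 CPM in infants. Samm50 is a protein of the mitochondrial outer membrane and not a direct cofactor of HSP70. None of 11 mitochondrial protein quality genes passed (edgeR, 1 at an unadjusted p under 0.05, 0 with DESeq2 and limma-voom), with Yme1l1 at 212 to 239 CPM in adults and 242 to 265 CPM in infants.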

How the data were processed

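RNA of 6 libraries was measured, 3 adult and 3 infant, each from 1 mouse. The authors deposited raw counts per gene symbol, whole numbers that were not normalized. STAR 2.5.4 did the alignment to mm10 and featureCounts the counting, per the submitters' processing notes. The sources used here do not give the annotation release, the strand setting or how reads with several matches were treated.

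The test was edgeR's quasi-likelihood F test (edgeR 4.0.16, R 4.3.3), run on the 11681 genes left by filterByExpr at a minimum count of 10 and a minimum total of 15. TMM factors ran from 0.963 to 1.07, there was no covariate, and p-values were adjusted by Benjamini-Hochberg over all tested genes, with 0.05 as threshold. CPM were scaled to tested-gene totals multiplied by TMM factors. SEs were obtained as the size of the log2 fold change over the root of F, and intervals cover 95%. The biological coefficient of variation was 0.184. On simulated counts for these 11681 genes 69.5% of the 2-fold and 86.7% of the 4-fold changes were recovered, and 12 genes without a change were called. Positions, exon lengths and 25-base words came from GENCODE M21 and promoters from RefSeq (GRCm38.p6). Totals of 3421253 to 4887371 counts limit what can be said of genes with few counts.

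Members, lists and alternatives were chosen with earlier results of these data known. Chaperones were named if they passed, were among the 3 of smallest p or of highest CPM in their class, or stood on a list of well-known members. Of the other lists every gene that passed was named and, where none did, the most abundant. Further genes were named after their values were seen, for groups that did not overlap, a promoter element, or a place beside a named gene. Replicates differed by more than sampling noise in every pair (chi-square over degrees of freedom 5.07 to 13.0). Other tests tried were limma-voom (limma 3.58.1), plain or under quality weights, and DESeq2 1.42.0. Normalization was varied with upper-quartile factors, with plain totals and with the size factors of DESeq2. Low counts were handled with no filter or with a stricter one that asked for 10 counts in 3 libraries and a mean of 20. Further alternatives used the replicate number as a block, thinned each library to 3421253 counts, left out ribosomal protein, mitochondrial, haemoglobin, T cell receptor and sex-linked genes, corrected for GC content and exon length by an offset (span 0.3), or left out libraries. Some marker results are not reported here.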

Additional observations from a re-analysis of the deposited data

How the results depend on the processing

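Over 19 alternatives, the 44 tested chaperones and 12 other genes that the naming rule picked gave 1061 values. Genes named after their values were seen, such as Trap1, Xbp1, Dnajb2 and Dnajc14, are not among these. Of these, 1027 kept their direction and side of the threshold or stayed uncalled, 28 lost and 6 gained significance, and none that passed in either fit changed sign. Among uncalled values 32, in 12 genes, took another sign.

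The number of chaperones that passed was 3 with no filter (Hspa12a, Hspa13 and Hsph1), 0 with the stricter filter, 2 with limma-voom under quality weights, and 3 without adult replicate 2 and infant replicate 3 together. Leaving out 1 library gave 0 to 2 (0 without adult replicate 3, infant replicate 1 or infant replicate 2, and 2 without adult replicate 2), and the other alternatives gave 1. The median log2 fold change of members of the chaperone families, 0.07, was -0.0325 with no filter, where the median of all genes was -0.84, -0.00711 after thinning, -0.0544 without adult replicate 2 and infant replicate 3, and -0.0767 to 0.112 on leaving out 1 library, so its sign was not stable. The count of all genes that passed, 425, was 139 to 488 on leaving out 1 library.

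Replicate numbers did not pair the libraries (correlations of same-numbered deviations -0.06, -0.0072 and -0.10). With the replicate number as a block 326 genes and 1 chaperone passed, and among the genes picked by the rule Hsf1 (edgeR, adjusted p = 0.0541) and Junb (0.0662) were no longer called. Hsf1 was also lost with no filter (edgeR, adjusted p = 0.139) and without adult replicate 2 and infant replicate 3 (0.116). Of 152 class medians 10 moved by more than the spread between replicates. The cause of these shifts was not tested.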
